A study of Mus musculus with 2 samples.

Results

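The mitochondrial ribosomal protein genes, which encode the protein subunits of the ribosome inside mitochondria, were taken from the gene symbols as all names made of Mrpl or Mrps and a number. The rule found 78 of 32285 genes, 49 with an Mrpl symbol (large subunit) and 29 with an Mrps symbol (small subunit), and no pseudogene had to be left out. They were measured by single-nucleus RNA-seq in interscapular brown adipose tissue (BAT) of 8-week-old mice, with 1 library per genotype. The WT library came from Srsf1 flox/flox littermates without Cre, and the KO library from Adipoq-Cre; Srsf1 flox/flox mice, in which the adiponectin promoter drives Cre in mature adipocytes. Both genotypes therefore carried the floxed Srsf1 alleles, only males were used according to the methods, and how many mice were pooled for a library is not given in the sources used here. Srsf1, a splicing factor, was at 168.7 UMIs per 1000000 UMIs (CPM) in WT and 66.8 CPM in KO over all barcodes, a check over all cell types and not of adipocytes alone.

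All mitochondrial ribosomal proteins are encoded in the nucleus, translated in the cytosol and imported, and they join ribosomal RNAs that the mitochondrial genome encodes. The assembled mitoribosome makes only proteins of the respiratory chain and ATP synthase, so that these subunits have to be matched by subunits made in the cytosol. Brown adipocytes are rich in mitochondria and burn fuel for heat. The cytosolic ribosomal protein genes (Rpl and Rps symbols, 77 genes) make the ribosome outside mitochondria. They are set beside the members here as a reference for RNA carried over from the cytoplasm, because their short, abundant mRNAs are found mostly outside the nucleus.

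The WT library held 93102814 unique molecular identifiers (UMIs, each standing for 1 captured RNA molecule) in 12846 barcodes, and the KO library 80090208 in 11495, and 52 barcode sequences occurred in both. After filtering, 12771 WT and 11378 KO nuclei were kept. Median UMIs per barcode were 3439.5 and 4363. Nuclei were put in classes by the share of UMIs from marker genes, giving 5925 WT and 2166 KO adipocyte nuclei, 473 and 2018 adipocyte stem and progenitor (ASPC) nuclei, 2580 and 1162 endothelial nuclei, 600 and 3838 immune nuclei, and 550 and 317 mural nuclei. The markers checked next were those that set the classes, so their levels are no independent check. In KO, all 9 adipocyte markers were highest in the adipocyte class. In WT this held for 7 of 9, because Adipoq was at 81.9 CPM in adipocyte nuclei and 82.4 in another class, and Plin4 at 330.9 and 337.5. The adipocyte markers together reached 2276 to 7360 CPM in the other 4 WT classes and 1646 to 4072 in the KO ones, against 12736 (WT) and 11447 (KO) in adipocyte nuclei. In each of those 4 classes adipocyte markers were thus higher in WT than in KO, and the part of such RNA from other cells in the differences below was not tested. The median share of mitochondrially encoded UMIs per barcode was 1.10% in WT and 0.0491% in KO.

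With 1 library per genotype there was no replicate error and no test. Levels are CPM, the UMIs summed over the nuclei of a class per 1000000 UMIs of that class, ratios are log2 of the KO over the WT level, and the 95% intervals in parentheses cover counting error only. A gene was read when it had at least 50 UMIs over both libraries, and it counted as 2-fold lower or 2-fold higher in KO at a log2 ratio of -1 or below, or of 1 or above.

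In adipocyte nuclei, the 78 members together were at 2026 CPM in WT (78408 UMIs) and 1617 CPM in KO (23590 UMIs), a log2 ratio of -0.33 (-0.35 to -0.30). The typical member was lower than this sum shows, with a median log2 ratio of -0.62, whereas the median of all 14891 genes read was 0.09. All 78 members had at least 50 UMIs. The ratio was below 0 for 67 members and its interval lay wholly below 0 for 57, while it lay wholly above 0 for 9 and held 0 for 12. Of the 78 members, 27 were 2-fold lower in KO and 1 was 2-fold higher, beside 17.5% and 19% of all genes read. The share of members that were 2-fold lower was 34.6%, above that background, and the share that were 2-fold higher was far below it.

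**Figure D1:**
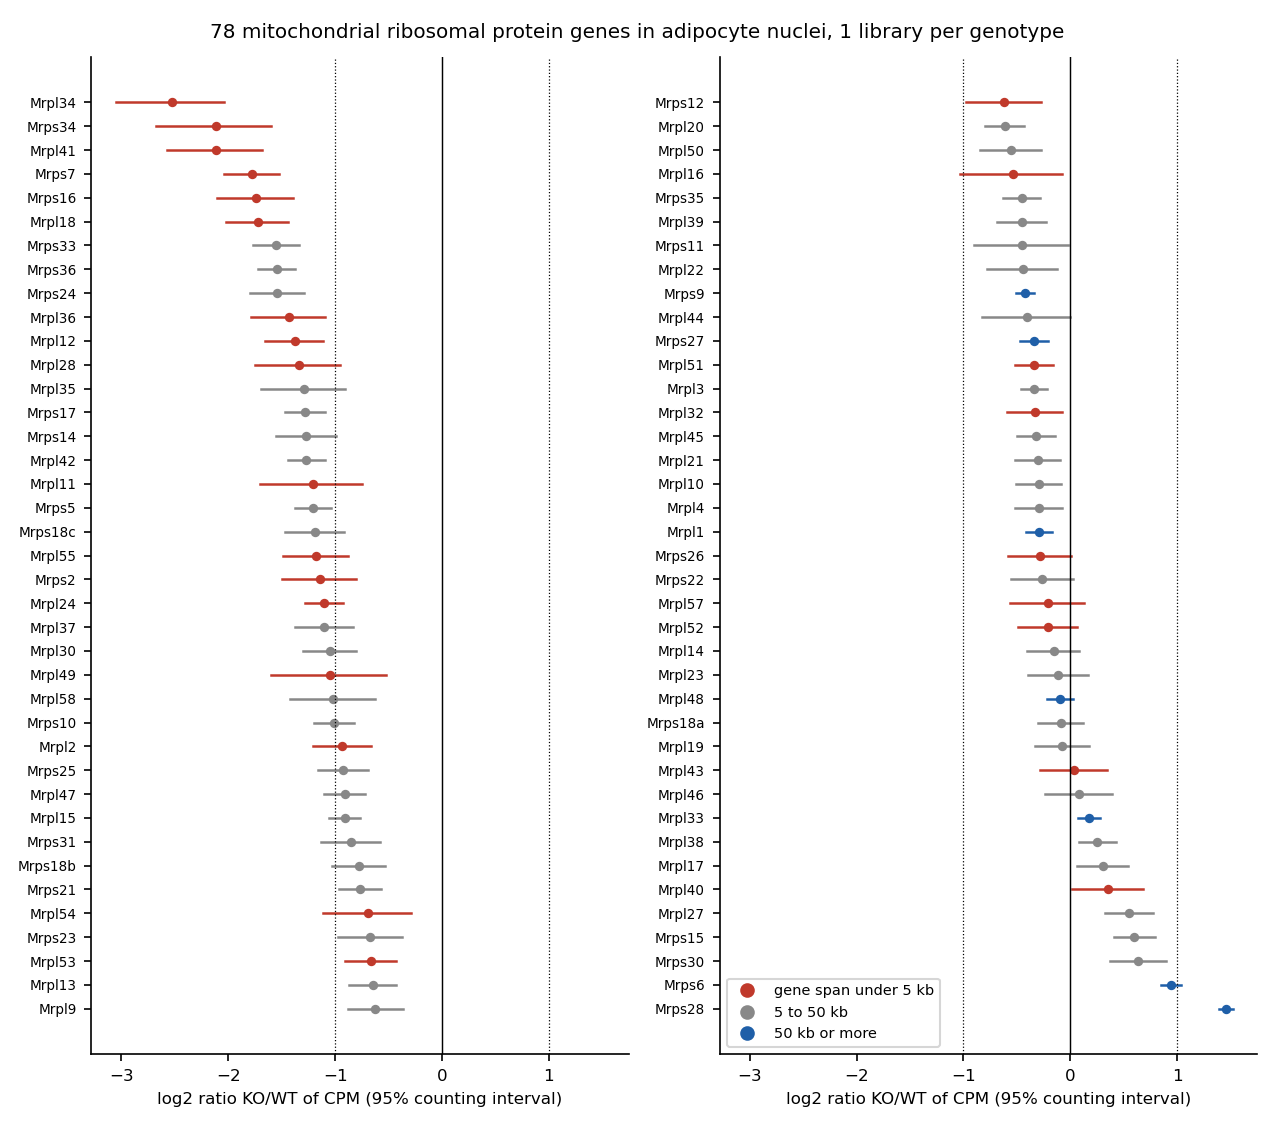
The log2 ratio of KO to WT (horizontal axis) of each of the 78 members in adipocyte nuclei, ranked from the lowest (top left) to the highest (bottom right), with 95% counting intervals as bars. Colors give the length of the gene from its first to its last annotated base, and dotted lines mark 2-fold. Mrpl34 at -2.52 and Mrps28 at 1.46 stand at the ends, and the members under 5 kb gather toward the low end.

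The lowest ratio belonged to Mrpl34, a small protein of the large subunit with a bacterial counterpart, at chr8:71464959-71465747 on the plus strand of GRCm38. It had 549 UMIs (14.2 CPM) in WT and 36 (2.47 CPM) in KO adipocyte nuclei, a log2 ratio of -2.52 (-3.05 to -2.04). Mrps34, a small-subunit protein needed for a stable small subunit, had 380 UMIs (9.82 CPM) in WT and 33 (2.26 CPM) in KO, a ratio of -2.12 (-2.68 to -1.60). Mrpl41 had 550 and 48 UMIs (14.2 and 3.29 CPM), a ratio of -2.11 (-2.57 to -1.68). The KO levels of these 3 genes were 0.174, 0.230 and 0.231 times the WT levels, and each gene spans under 5 kb.

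The next lowest were Mrps7, which binds near the head of the small subunit (32.4 CPM in WT and 9.46 in KO, ratio -1.78), and Mrps16 (17.4 and 5.21 CPM, -1.74). Mrpl18, a protein of the central protuberance of the large subunit, followed at 25.8 and 7.81 CPM (-1.72). Mrps33 was at 39.8 and 13.6 CPM (-1.55). Mrps36 was at 60.2 and 20.6 CPM (-1.55). The product of Mrps36 is by now known as a part of the α-ketoglutarate dehydrogenase complex of the citric acid cycle and not of the ribosome, so that 1 of the 8 lowest genes carries the family name only.

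At the other end, Mrps28 was the gene whose level was 2-fold higher. It had 4046 UMIs (104.5 CPM) in WT and 4185 (286.8 CPM) in KO adipocyte nuclei, a log2 ratio of 1.46 (1.39 to 1.52), although the KO class held fewer nuclei. Mrps6, a small-subunit protein with a bacterial counterpart, was at 61.7 CPM in WT and 118.6 in KO, a ratio of 0.94 (0.85 to 1.03). Mrps28 spans 121.8 kb (chr3:8802146-8923918, minus strand) and Mrps6 54.0 kb (chr16:92058270-92112227, plus strand). Mrps6 shares annotated exon sequence with Slc5a3 and Gm49711 on the same strand, so its UMIs are uncertain to that extent.

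Of the other members with the highest ratios, Mrps30 was at 8.29 CPM in WT and 12.9 in KO (0.64), and its protein sits in the large subunit despite its symbol. Mrps15 was at 15.9 and 24.1 CPM (0.60), and Mrpl27, which lies close to the site where peptide bonds form, at 12.1 and 17.7 CPM (0.55). Mrpl40 (0.35), Mrpl17 (0.30) and Mrpl38 (0.25) were higher in KO by less, with intervals above 0. Mrpl17 and Mrps30 changed sign when each nucleus was given equal weight, to -0.013 and -0.030, and Mrpl17 was at -0.17 where the class needed a marker share of 2 times the mean, so their directions are not settled by these libraries.

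The members with the most UMIs in WT adipocyte nuclei were Mrps9 (5735 UMIs), Mrps28 (4046), Mrpl3 (2509) and Mrpl1 (2506), counts that are not divided by gene length. Apart from Mrps28, they were lower in KO by less than the median member. Mrps9 was at 148.2 CPM in WT and 110.5 in KO (-0.42), Mrpl3 at 64.8 and 51.3 CPM (-0.34), and Mrpl1, a protein of the mobile stalk, at 64.7 and 52.9 CPM (-0.29). Mrps28 alone took 5.16% of all member UMIs in WT and 17.7% in KO. Without Mrps28 the summed level of the other 77 members was 1921 CPM in WT and 1330 in KO, a ratio of -0.53 (-0.55 to -0.51), and without Mrps6 as well it was -0.62 (-0.64 to -0.59). The sum over all members was thus held up by a pair of genes.

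Members with roles beyond structure were lower in KO or near 0. Mrpl12, which also binds the mitochondrial RNA polymerase, was at 23.2 CPM in WT and 8.91 in KO (-1.38, -1.65 to -1.11). Mrpl58, a peptide release factor built into the large subunit, was at 8.86 and 4.39 CPM (-1.01, -1.42 to -0.63). Mrpl44, which carries a ribonuclease III-like fold, was at 5.89 and 4.45 CPM (-0.40), with an interval that reached 0.

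The Mrps18 paralogs, related to 1 bacterial protein, did not move alike. Mrps18c was at 19.7 CPM in WT and 8.63 in KO (-1.19, -1.47 to -0.91), and Mrps18b at 19.9 and 11.6 CPM (-0.78, -1.03 to -0.54). Mrps18a, whose protein is found in the large subunit, was at 18.6 and 17.5 CPM (-0.09, -0.30 to 0.12), an interval apart from those of the other two.

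By symbol, the large-subunit members had a median ratio of -0.54 in adipocyte nuclei, and the small-subunit members a median of -0.78. Of these, 15 of 49 and 12 of 29 were 2-fold lower, beside 17.5% of all genes read. The symbols put Mrps30, Mrps18a and Mrps36 in the small subunit, although their proteins are not part of it, as given above. Their sums gave the opposite order, -0.51 (747.6 against 1063 CPM) for the large and -0.15 (869.0 against 963.2 CPM) for the small subunit, and without Mrps28 and Mrps6 the small-subunit sum was at -0.78 (463.7 against 797.0 CPM). No difference between the subunits therefore held for both measures.

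Ratios followed the length of the gene, counted from its first to its last annotated base with introns. The 26 members under 5 kb had a median log2 ratio of -1.07 and 14 of them (53.8%) were 2-fold lower in adipocyte nuclei, beside 30.7% of the other protein-coding genes of that length. The 27 members of 5 to 10 kb had a median of -0.45, the 14 of 10 to 20 kb of -0.91, the 4 of 20 to 50 kb of -0.55 and the 7 of 50 kb or more of -0.09, with none of the last 2-fold lower, beside 10.8% of other genes. The 7 long genes (Mrpl1, Mrpl33, Mrpl48, Mrps6, Mrps9, Mrps27 and Mrps28) gave 27.2% of member UMIs in WT and 45.4% in KO. Over the 78 members the correlation of the ratio with the log10 of the length was 0.45 (Pearson) and 0.31 (Spearman), a description across genes that share the same libraries. The length of the spliced transcript gave a Spearman value of 0.03.

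Other protein-coding genes showed the same direction but higher values. In adipocyte nuclei their median ratio was -0.55 under 5 kb (1102 genes), -0.17 at 5 to 10 kb, 0.06 at 10 to 20 kb, 0.23 at 20 to 50 kb and 0.33 at 50 kb or more (3957 genes). The members' median was below that of other genes in each of these 5 length groups. The nuclear OXPHOS subunit genes, which encode the respiratory chain subunits made in the cytosol, ran lower still, from -2.02 under 5 kb to -1.05 at 10 to 20 kb and -0.73 at 20 to 50 kb. In ASPC, endothelial and immune nuclei the members under 5 kb had medians of -1.02, -1.15 and -1.04, and those of 50 kb or more -0.22, -0.12 and -0.25. In mural nuclei these medians were -0.67 and -0.02. The Spearman correlation of member ratio and length was weaker there, at 0.15 beside 0.31 in adipocyte nuclei. The sources used here do not say if reads in introns were counted, and the part of nuclear and cytoplasmic RNA in this gradient was not tested.

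**Figure D2:**
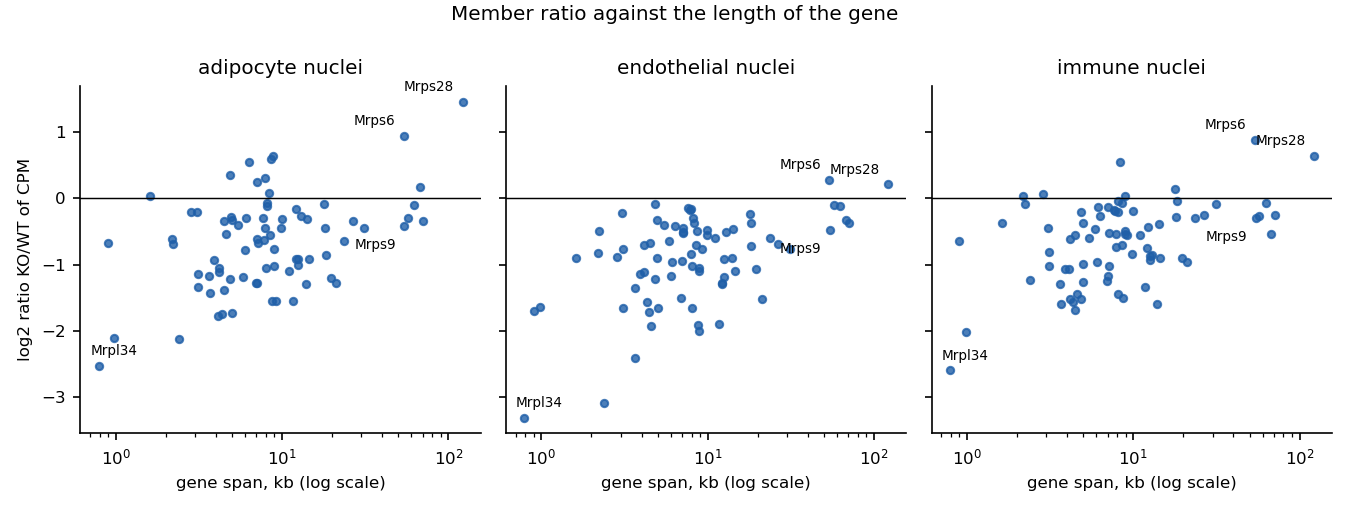
The log2 ratio of KO to WT (vertical axis) of each member read against the length of its gene in kb (horizontal log axis), in adipocyte, endothelial and immune nuclei, 1 point per gene. The shortest gene, Mrpl34, is the lowest in all panels, and the 2 genes named at the upper right, Mrps28 and Mrps6, lie above 0 in all of them.

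Promoter sequences are shown because some sequence features, which the choice by symbol did not use, were more frequent in member promoters than in all promoters. RefSeq windows of GRCm38.p6, from 250 bases before to 50 after a start, were matched for 69 of the 78 members (75 windows). NRF1 is an activator of nuclear genes for mitochondria. Its half-site TGCGCA, which reads the same on both strands, was in 22 of 75 member windows (29.3%) and 7.76% of all 32851 windows. The ETS/GABP motif CCGGAAGT, searched on both strands, was in 12 (16%) and 3.89%, and the YY1 motif AAGATGGC in 12 (16%) and 2.75%. The ERR motif TCAAGGTCA was in none of the member windows and 0.423% of all. No match of one motif overlapped another, 6 windows held more than 1 kind and 35 held none. Member windows also had a median of 21 CG dinucleotides against 7 in all windows. The letters of the NRF1 half-site and of the ETS/GABP motif contain CG, and the windows compared were not matched for it. The part of CG content in the higher motif shares was not tested. Matches of the ETS/GABP motif had a median position 27 bases before the start, and those of YY1 16 bases after it.

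These 4 windows, each giving the 150 bases before the start with motif matches in capitals, were taken from the 20 windows with no annotated exon in these bases. Among those 20, they are the lowest member, Mrpl34 (chr8:71464776-71464925, plus strand, no match), the lowest and the highest member with an NRF1 half-site there, Mrps16 (chr14:20393635-20393784, minus strand) and Mrpl45 (chr11:97315566-97315715, plus strand), and Mrps22 (chr9:98601680-98601829, minus strand) with the ETS/GABP motif close to its start.
Mrpl34: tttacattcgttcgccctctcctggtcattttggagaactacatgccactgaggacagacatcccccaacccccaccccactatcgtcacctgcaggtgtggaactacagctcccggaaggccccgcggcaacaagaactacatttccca
Mrps16: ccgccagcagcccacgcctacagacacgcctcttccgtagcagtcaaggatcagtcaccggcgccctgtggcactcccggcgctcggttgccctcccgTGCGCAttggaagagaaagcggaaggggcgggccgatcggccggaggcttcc
Mrpl45: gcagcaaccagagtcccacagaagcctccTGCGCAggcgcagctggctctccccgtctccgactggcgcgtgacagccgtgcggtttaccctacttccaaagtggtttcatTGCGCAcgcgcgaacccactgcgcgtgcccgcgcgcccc
Mrps22: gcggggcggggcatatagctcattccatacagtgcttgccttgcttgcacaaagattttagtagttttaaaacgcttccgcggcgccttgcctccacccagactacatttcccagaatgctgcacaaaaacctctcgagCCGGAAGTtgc

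In adipocyte nuclei the 12 members with the ETS/GABP motif had a median log2 ratio of -0.27, and the 57 without it a median of -0.78. Of the 12, 2 were 2-fold lower, and of the 57, 24 were, beside 17.5% of all genes read. The share with the motif was thus near that of all genes. For the NRF1 half-site the medians were -0.44 (21 members) and -0.72 (48), and for YY1 -1.07 (12) and -0.61 (57). A match of letters is no proof of binding, and these groups are small. A protein-coding gene started on the opposite strand within 1 kb upstream of 18 of the 78 members (23.1%), as for 6.77% of all 21625 protein-coding genes. Exon sequence was overlapped by a gene on the other strand for 22 members and on the same strand for 5. The 52 members with no overlap had a median ratio of -0.62 in adipocyte nuclei and the other 26 of -0.63.

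The members were also lower in KO outside the adipocytes that the Adipoq promoter targets. In ASPC nuclei they summed to 1530 CPM in WT and 1113 in KO (-0.46, -0.51 to -0.40), in endothelial nuclei to 1580 and 982.2 (-0.69, -0.75 to -0.63), in immune nuclei to 1520 and 1160 (-0.39, -0.44 to -0.34), and in mural nuclei to 1665 and 1282 (-0.38, -0.44 to -0.31). The sum was lower in KO in all 5 classes. The median member ratios were -0.70, -0.77, -0.55 and -0.55 in the same order.

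Of members with at least 50 UMIs, 22 of 72 were 2-fold lower in ASPC nuclei, beside 11.3% of all genes read, and 29 of 77 in endothelial nuclei, beside 13.4%. In immune nuclei 21 of 78 were 2-fold lower, beside 11.5%, and in mural nuclei 12 of 59, beside 10.9%. In each class the share of members was above the background. No member was 2-fold higher in these classes, where 6.48% (ASPC), 3.44% (endothelial), 5.99% (immune) and 7.63% (mural) of all genes were.

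**Figure D3:**
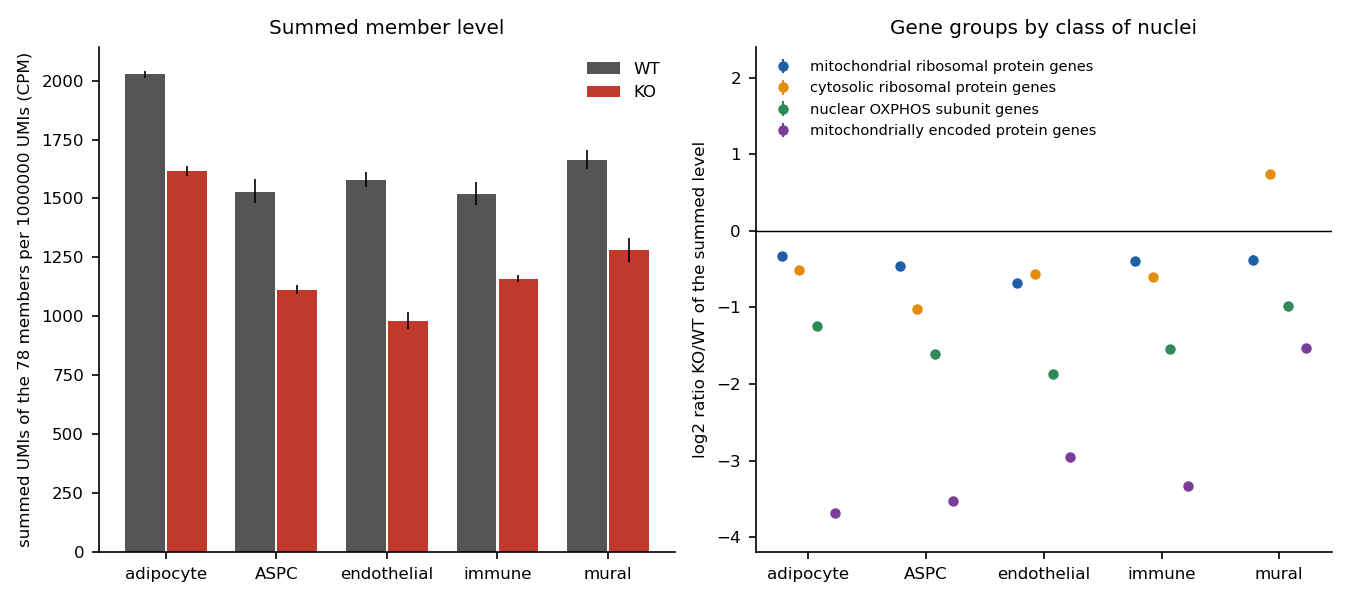
Left, the summed level of the 78 members in CPM in each class of nuclei, WT and KO, with 95% counting intervals. Right, the log2 ratio of KO to WT of the summed level of 4 gene groups by class, with intervals mostly smaller than the points. The members were lower in KO in each class, the mitochondrially encoded genes were lower by the most, and the cytosolic ribosomal protein genes were above 0 in mural nuclei.

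Single members kept to their place across classes to a varying degree. The interval was below 0 in all 5 classes for 18 members, among them Mrps7, Mrps16, Mrpl18, Mrps33 and Mrps36, and it was below 0 in at least 4 classes for 33. Mrpl34 had 134 UMIs (20.4 CPM) in WT and 6 (2.06 CPM) in KO endothelial nuclei (-3.30) and 32 (12.5 CPM) and 43 (2.07 CPM) UMIs in immune nuclei (-2.59). Mrps28 was above 0 with its interval in 4 classes, at 0.83 in ASPC, 0.64 in immune and 0.57 in mural nuclei beside adipocytes, and at 0.21 (-0.01 to 0.44) in endothelial nuclei. Mrps6 was above 0 in immune nuclei (0.89, 35.1 CPM in WT and 64.9 in KO) and at -0.07 in ASPC nuclei (40.7 and 38.7 CPM). For 10 members the interval was below 0 in no class. The same counts by interval were not made over all genes read, so they do not mark out the members.

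**Figure D4:**
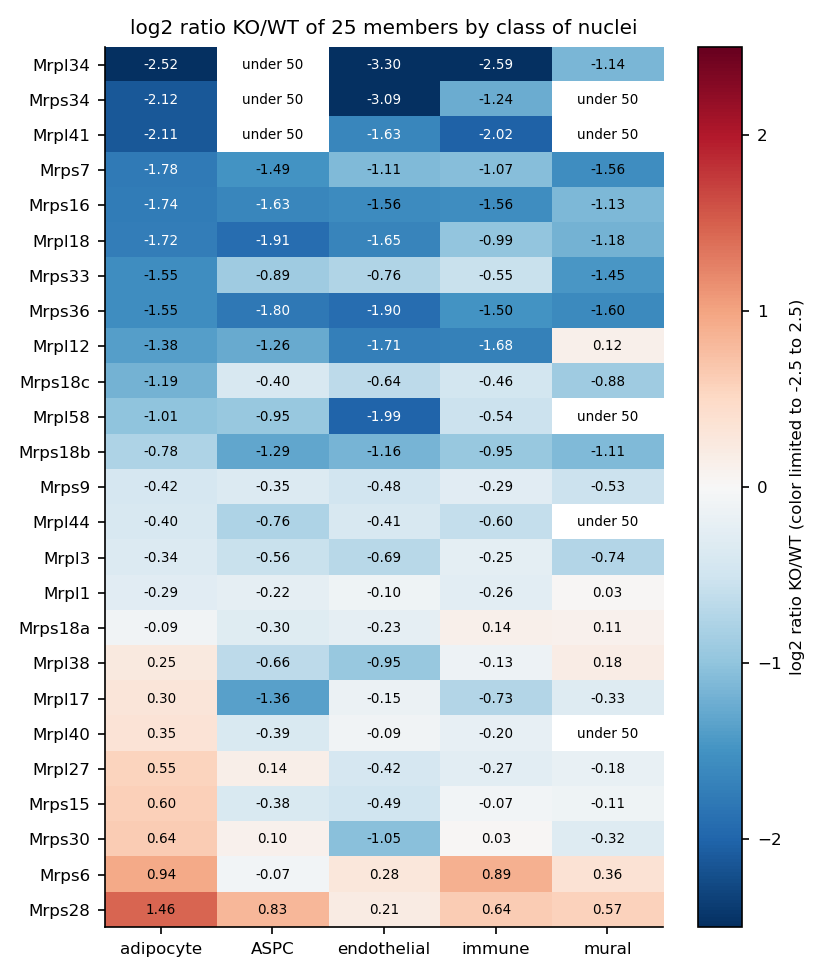
The log2 ratio of KO to WT of 25 members (rows, sorted by their adipocyte ratio) in 5 classes of nuclei (columns), printed in each cell and shown as color, with genes under 50 UMIs in a class left white. Mrpl34 to Mrps36 are below 0 in all columns read, and Mrps28 is above 0 in all columns.

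Set against the cytosolic ribosomal protein genes, the members did not keep a fixed proportion. The cytosolic genes summed to 2571 CPM in WT and 1810 in KO adipocyte nuclei (-0.51), and were lower in KO in ASPC (-1.03), endothelial (-0.57) and immune nuclei (-0.60) but higher in mural nuclei (0.75, from 2524 to 4235 CPM). Adipocyte nuclei held 78.8 member UMIs per 100 cytosolic ribosomal protein UMIs in WT (78.1 to 79.5) and 89.3 in KO (87.7 to 90.9), a log2 ratio of 0.18 (0.15 to 0.21). ASPC nuclei held 40.6 and 60.1, immune nuclei 40.2 and 46.5, endothelial nuclei 38.8 and 35.8, and mural nuclei 66.0 and 30.3. Relative to this reference the summed member level was thus higher in KO in adipocyte, ASPC and immune nuclei and lower in endothelial and mural nuclei. In endothelial nuclei (-0.12) the direction turned under 4 alternatives, with values from 0.013 to 0.17, and in immune nuclei (0.21) under 1, to -0.23. In adipocyte nuclei the member sum was at -0.53 without Mrps28, beside -0.51 for the cytosolic genes, and without Mrps6 as well at -0.62. Mrps28, the member with the highest ratio, was left out after the data were seen. The cytosolic list was left whole here, although it too held a gene at 1.56. These sums were therefore not trimmed alike and do not show that the rise depended on Mrps28. The median ratios in adipocyte nuclei were -0.62 for the members and -0.60 for the cytosolic genes. Without Mrps28 and Mrps6, the member sum was at -0.58 beside -0.60 in immune nuclei, and at -0.65 beside -1.03 in ASPC nuclei. Genes under 5 kb gave 78.2% of cytosolic and 19.6% of member UMIs in WT adipocyte nuclei. For genes under 5 kb, member and cytosolic median ratios were -1.07 and -0.61 in adipocyte and -1.04 and -0.72 in immune nuclei. They were -1.02 and -1.06 in ASPC, -1.15 and -0.57 in endothelial and -0.67 and 0.74 in mural nuclei. At 5 to 10 kb they were -0.45 and -0.59 in adipocyte nuclei. The direction of the sums was thus not kept throughout at like length.

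The nuclear OXPHOS subunit genes and the mitochondrially encoded genes were lower by more than the members. In adipocyte nuclei the 82 nuclear OXPHOS subunit genes summed to 7709 CPM in WT and 3269 in KO (-1.24). Of the 78 read, 60 were 2-fold lower, beside 17.5% of all genes read. The 13 mitochondrially encoded protein genes, the products of mitochondrial translation, summed to 8561 and 667.9 CPM (-3.68), and all 13 were 2-fold lower. In the other classes the OXPHOS sum was at -0.98 to -1.87 and the mitochondrially encoded sum at -1.54 to -3.53. Member UMIs per 100 OXPHOS UMIs accordingly were 26.3 in WT and 49.5 in KO adipocyte nuclei, and higher in KO in each of the other 4 classes too, from 22.1 to 50.4 in endothelial nuclei for example. The adipocyte marker levels of the other classes and the mitochondrial shares were higher in WT as well, and their part was not tested.

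Within each library, members were higher in adipocyte nuclei than in ASPC, endothelial and immune nuclei, while the cytosolic ribosomal protein genes were lower. In WT the member sum was above that of these 3 classes by 0.41, 0.36 and 0.41 on the log2 scale, where the cytosolic ribosomal protein sum was at -0.55, -0.66 and -0.56. In KO the member sum was above by 0.54, 0.72 and 0.48, and the cytosolic sum at -0.03, -0.60 and -0.46. The cytosolic order varied with depth. In WT nuclei under 2000 UMIs it was 7176 CPM in adipocyte, 7654 in ASPC, 5623 in endothelial and 6678 in immune nuclei. In KO nuclei of that depth the levels were 6044, 7186, 2499 and 5631 CPM. In WT nuclei of 2000 to 5000 UMIs they were 3278, 4485, 3872 and 4314 CPM. Of the 78 members, 44 in WT and 55 in KO were highest in adipocyte nuclei among these classes, 36 in both, and for 12 the intervals were above 0 against all 3 other classes in both libraries. The opposite, a member lowest in adipocyte nuclei in both libraries, was not found. How many of all genes read were highest or lowest there was not counted, so these counts do not mark out the members. The summed member level was higher in adipocyte nuclei than in these 3 classes in either genotype.

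The difference between WT and KO varied in size with the depth of the nuclei. Among adipocyte nuclei under 2000 UMIs, members were at 2496 CPM in WT (1928 nuclei) and 1668 in KO (315 nuclei). Between 5000 and 10000 UMIs they were at 2062 CPM (2658 nuclei) and 1627 (841 nuclei), and from 10000 UMIs on at 1919 and 1581. WT shallow nuclei also had more cytosolic ribosomal protein RNA (7176 CPM) and more mitochondrially encoded UMIs (2.45%) than WT nuclei from 10000 UMIs on (1948 CPM and 0.637%). The members stayed lower in KO in each depth group that could be compared, but in endothelial nuclei of 5000 to 10000 UMIs (119 WT and 68 KO nuclei) the levels were 1331 (1250 to 1415) and 1178 (1079 to 1283), with overlapping intervals.

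Thinned to 1000 UMIs each, 86.4% of 4929 WT and 78.4% of 1985 KO adipocyte nuclei held at least 1 member UMI, with 996 and 181 shallower nuclei left out. The shares were 79.0% and 63.3% in ASPC, 79.6% and 61.1% in endothelial and 79.4% and 65.2% in immune nuclei. Without thinning they were 97.1% and 95.8% in adipocyte nuclei. No class lacks mitochondria, so none gives a background level for these shares.

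**Figure D5:**
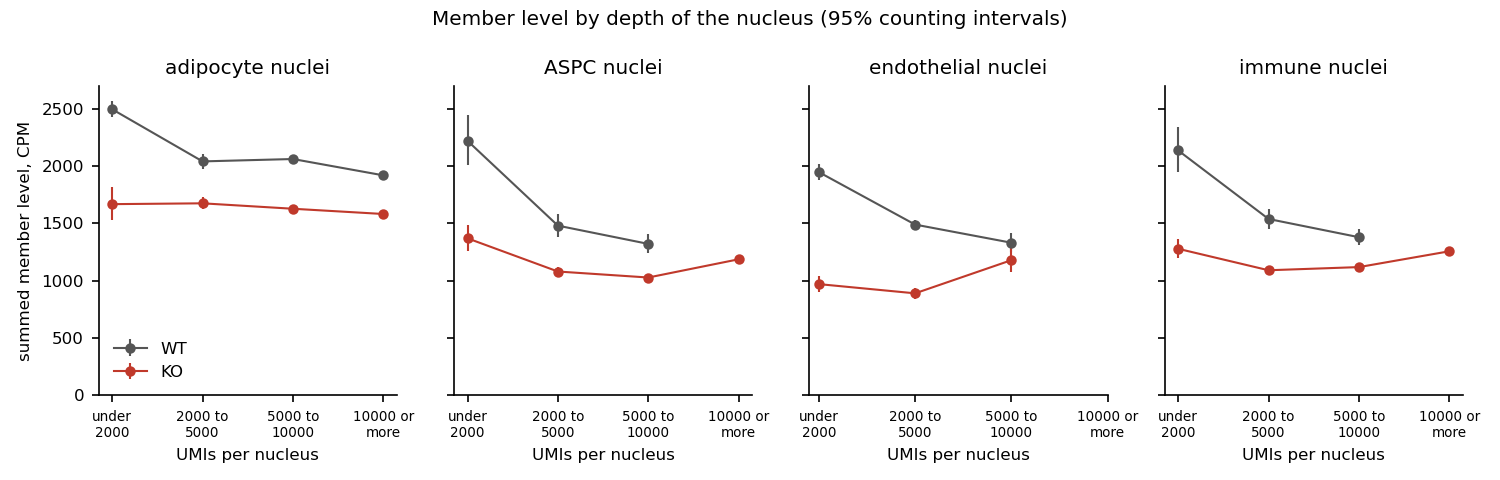
Summed member level in CPM (vertical axis, from 0) in nuclei grouped by their UMIs (horizontal axis), WT and KO, in 4 classes, with 95% counting intervals; groups under 50 nuclei are not drawn. WT lies above KO in each group where both are drawn, and WT nuclei under 2000 UMIs have the highest member level of each class.

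The other genes of mitochondrial translation were taken from lists of known components. As background for their counts, 17.5% of all genes read in adipocyte nuclei were 2-fold lower in KO and 19% were 2-fold higher. The 5 mitoribosomal proteins with other symbols had a median ratio of -1.37 in adipocyte nuclei, with 3 of 5 being 2-fold lower. Gadd45gip1 was at 7.57 CPM in WT and 2.19 in KO (-1.79) and Chchd1 at 20.2 and 7.81 CPM (-1.37), while Ptcd3 (-0.13) and Dap3, a GTP-binding protein of the small subunit (-0.12), were near 0.

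Of 15 translation factors, 3 (20%) were 2-fold lower, near the 17.5% of all genes read, and none was 2-fold higher. Their median was -0.62. Tufm, the elongation factor that brings tRNAs to the ribosome, was at 10.9 CPM in WT and 2.74 in KO (-1.99), and Slirp, an RNA-binding partner of Lrpprc, at 15.2 and 5.82 CPM (-1.38). Taco1, an activator of Cox1 translation (19.4 and 32.0 CPM, 0.72), and Mtfmt, which formylates the initiator tRNA (7.65 and 12.6 CPM, 0.72), were higher. These factors had about the median of the members.

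The 24 assembly factors had a median of -0.16, with 1 being 2-fold lower (Ybey, a ribonuclease, 4.19 and 1.92 CPM, -1.13) and 1 being 2-fold higher (Ddx28, a helicase, 2.07 and 5.69 CPM, 1.46). Tfb1m, which methylates the small ribosomal RNA, was at 27.4 and 13.7 CPM (-0.999, just short of the limit), and Mrm2, a methyltransferase of the large ribosomal RNA, at 2.64 and 5.003 CPM (0.92). The 17 mitochondrial aminoacyl-tRNA synthetases had a median of -0.25, with 1 being 2-fold lower, Sars2 (11.5 and 3.43 CPM, -1.74). Cars2 was at 25.04 and 15.7 CPM (-0.67) and Mars2 at 5.32 and 10.3 CPM (0.96). Both lists had medians closer to 0 than the members. Their shares of 2-fold lower genes (4.17% and 5.88%) were below the 17.5% of all genes read.

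The 7 transcription factors of the mitochondrial genome had a median of -0.13. Tfb2m, which opens the promoter for the polymerase, was at 55.0 CPM in WT and 26.5 in KO (-1.05), and Tfam, which packs the mitochondrial DNA, at 15.9 and 11.4 CPM (-0.48). The near-identical copies Mterf1a (6.51 and 8.98 CPM, 0.46) and Mterf1b (2.76 and 4.80 CPM, 0.80) were higher but share sequence, so their split is uncertain.

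Of 8 nuclear regulators of mitochondrial genes, 3 were 2-fold lower and 1 was 2-fold higher, beside 17.5% and 19% of all genes read. Ppargc1a, the coactivator that raises mitochondrial gene expression in brown fat, was at 5169 CPM in WT and 522.3 in KO adipocyte nuclei (-3.31), and its relative Ppargc1b at 2628 and 684.2 CPM (-1.94). Gabpa, the DNA-binding part of GABP, which was named after its value was seen because of the motif above, was at 129.1 and 47.7 CPM (-1.44). Nrf1 (136.5 and 182.7 CPM, 0.42) and Pprc1, another coactivator of this family (20.7 and 46.8 CPM, 1.17), were higher in KO. These regulators of 1 gene program thus lay on both sides of 0.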

How the data were processed

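Single-nucleus RNA-seq of BAT was deposited as raw UMI counts per gene and nucleus, 1 matrix per library. The authors aligned reads to GRCm38 with STAR and counted UMIs with Cell Ranger, version 5.0.0 per the file headers and the submitters' processing notes (the methods name an older version). The sources used here do not say if reads in introns were counted. Nuclei were kept with at least 200 genes, at most 10% mitochondrial UMIs, and log UMIs and log genes no further than 3 median absolute deviations from their median in the library. A nucleus took the class with the highest marker share of UMIs, relative to its mean in all nuclei, if it held at least 3 marker UMIs and at least 2 times the share of the next class. The rest, 2311 WT and 1779 KO nuclei, were uncalled, mixed nuclei included, and no doublet caller was run. Of adipocyte nuclei, 646 (WT) and 396 (KO) were called below the mean adipocyte marker share.

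UMIs were summed per class and scaled to 1000000. Intervals on ratios are exact binomial (Clopper-Pearson), those on levels exact Poisson and those on ratios to the reference from the delta method. The members and lists were chosen with earlier results of these data known. Named are the 8 lowest and 8 highest members read in adipocyte nuclei, the 4 with the most WT UMIs, members with a known special role and the 2 lowest and 2 highest genes of each list, of which 1 gene is not reported here. Mrps22 and Mrpl45 were chosen for their promoters. Gene places and lengths came from GENCODE release M21. The ratio and its interval were tested on simulated data. Scripts used Python 3.11.15, numpy 2.4.6, scipy 1.17.1, pandas 2.3.3 and matplotlib 3.10.9.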

Additional observations from a re-analysis of the deposited data

Results flagged for a closer look

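For 5 members the log2 ratio of KO to WT lay above 0 with its counting interval in one class of nuclei and below 0 in another. Mrpl14 was at 0.82 in mural and -1.29 in endothelial nuclei. Mrpl17 was at 0.30 in adipocyte and -1.36 in ASPC nuclei, Mrpl33 at 0.18 in adipocyte and -0.54 in immune nuclei, Mrpl38 at 0.25 in adipocyte and -0.95 in endothelial nuclei, and Mrps30 at 0.64 in adipocyte and -1.05 in endothelial nuclei. With 1 library per genotype the difference between classes was not tested, and the values of Mrpl17 and Mrps30 in adipocyte nuclei changed sign under other settings.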

How the results depend on the processing

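The summed member level was lower in KO in all 5 classes under each alternative run. In adipocyte nuclei it was at -0.36 with limits of 500 to 5000 genes, -0.37 with marker shares taken within each library, -0.42 as the mean over nuclei, -0.41 centred on the all-gene median ratio, -0.38 thinned to 1000 UMIs and -0.35 without the 10% of nuclei with the most UMIs. Of the alternatives added after seeing the data, a marker share of at least 2 times the mean gave -0.39, leaving out Mrps28 gave -0.53 and leaving out Mrps28 and Mrps6 gave -0.62. In ASPC nuclei the values were -0.61 (share within each library), -0.61 (mean), -0.64 (thinned), -0.51 (top 10% left out), -0.63 (without Mrps28) and -0.65 (without both). In endothelial nuclei they were -0.85 (mean), -0.81 (thinned), -0.84 (top 10% left out), -0.44 (only nuclei with at least 3000 UMIs, an added alternative), -0.75 (without Mrps28) and -0.78 (without both). In immune nuclei they were -0.56 (share within each library), -0.55 (mean), -0.54 (thinned), -0.46 (top 10% left out), -0.34 (at least 3000 UMIs), -0.52 (without Mrps28) and -0.58 (without both). In mural nuclei they were -0.49 (500 to 5000 genes), -0.46 (mean), -0.49 (centred), -0.46 (thinned), -0.48 (without Mrps28) and -0.53 (without both). The causes of these shifts were not tested, save that genes were left out.

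The count of members 2-fold lower in adipocyte nuclei ranged from 25 to 31. In the other classes it was 0 (ASPC), 17 (endothelial), 4 (immune) and 0 (mural) when thinned, where fewer members reached 50 UMIs, and 7 in mural nuclei without the deepest 10%. The share of all genes that were 2-fold lower was not counted under the alternatives, nor the number of members read. These counts therefore have no background and cannot be set beside the main ones. The summed level stayed lower in KO in each class when thinned. With all members kept, the member ratio to cytosolic ribosomal protein genes in adipocyte nuclei stayed above 0. It was at 0.15 without a filter, 0.22 with 500 to 5000 genes, 0.15 with shares within each library and 0.23 as the mean. It was at 0.33 thinned, 0.23 without the deepest 10% and 0.14 with at least 3000 UMIs. This ratio was not run without Mrps28, where the member sum was at -0.53 beside -0.51 for the cytosolic genes, whose list was left whole. In endothelial nuclei the member ratio to cytosolic ribosomal protein genes turned to 0.013 (500 to 5000 genes), 0.039 (mean), 0.12 (thinned) and 0.17 (top 10% left out). In immune nuclei it turned to -0.23 (share within each library). The cytosolic sum of endothelial nuclei turned to 0.31 with at least 3000 UMIs, and the median member ratio of mural nuclei to 0.18 when thinned. Mrpl17 turned to -0.013 (mean) and -0.17 (marker share of 2 times the mean) and Mrps30 to -0.030 (mean), 3 of 298 values of the 25 named members. Mrpl44, whose interval held 0 and which is not among those 3, also changed sign, to 0.10 with a marker share of 2 times the mean.

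No paired analysis was possible because each genotype has 1 library. With 1 library per genotype, genotype and library cannot be told apart, and depth limits members with few UMIs most, such as the 6 members under 50 UMIs in ASPC nuclei.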
